A study of Mus musculus with 17 samples.

Results

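Vmp1 and F630028O10Rik are the mouse host genes of microRNA 21 and microRNA 223, that is, genes whose transcripts carry the hairpins Mir21a and Mir223 within an exon. They are 2 of the 49585 genes quantified in plasma cell-free RNA (cfRNA), and they were chosen by their read counts, for being higher in the flight groups than in the ground controls. Their differences between flight and ground are therefore given as a description, without a test. All mice were wild-type C57BL/6J, 13 weeks of age, from the MHU-1 mission, and each library was made from the plasma of 1 mouse. The MG group (6 libraries) lived on the ISS in microgravity, the AG group (6 libraries) lived on the ISS under artificial 1-G made by a rotating platform, and the GC group (5 libraries) stayed on the ground. The labels name no altered gene and no drug.

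Vmp1 encodes a membrane protein of the endoplasmic reticulum that is required for the formation of autophagosomes, the vesicles that enclose cell contents for degradation. A microRNA is cut from a hairpin in a longer primary transcript, and its seed, the bases near its 5′ end, pairs with sites in target mRNAs and lowers their output. MicroRNA 21 is made in many tissues and is known for its rise in tumors, inflammation and fibrosis. MicroRNA 223 is known as a microRNA of granulocytes, monocytes and platelets. F630028O10Rik has no known protein product.

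The mature microRNAs are shown because they name what each host transcript carries, with the seed (bases 2 to 8) in capitals. The sequences are from RefSeq on GRCm38.p6, 5′ to 3′.
mmu-miR-21a-5p: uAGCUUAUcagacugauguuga
mmu-miR-21a-3p: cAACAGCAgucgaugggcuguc
mmu-miR-223-3p: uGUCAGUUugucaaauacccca
mmu-miR-223-5p: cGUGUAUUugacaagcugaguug
The 4 seeds differ from each other. Among the 1738 mature mouse microRNAs of the sequence table, the seed of miR-21a-5p was shared with 1 other, mmu-miR-21c, and the seed of miR-223-3p with 0 others.
mmu-miR-21c: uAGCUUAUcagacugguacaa

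On GRCm38 (mm10), Vmp1 (ENSMUSG00000018171.9, protein coding) lies at chr11:86583865-86683836 on the minus strand. Mir21a (ENSMUSG00000065455.1) lies at chr11:86584067-86584158, within the last of the 12 exons and within the annotated 3′ UTR, 202 bases from the 3′ end of the gene. F630028O10Rik (ENSMUSG00000078122.4) lies at chrX:96239926-96243636 on the plus strand and is annotated as an antisense RNA. Mir223 (ENSMUSG00000076066.1) lies at chrX:96242817-96242926, within the last of 3 exons and 710 bases from the 3′ end. Both hairpins are thus part of the spliced host transcript and not of an intron. Mir21a covers 92 of the 3862 exon bases of Vmp1 (2.38%), and Mir223 covers 110 of the 3295 exon bases of F630028O10Rik (3.34%). The strand setting of the counting is not given in the sources used here, so reads of F630028O10Rik and reads from the opposite strand cannot be told apart.

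**Figure D1:**
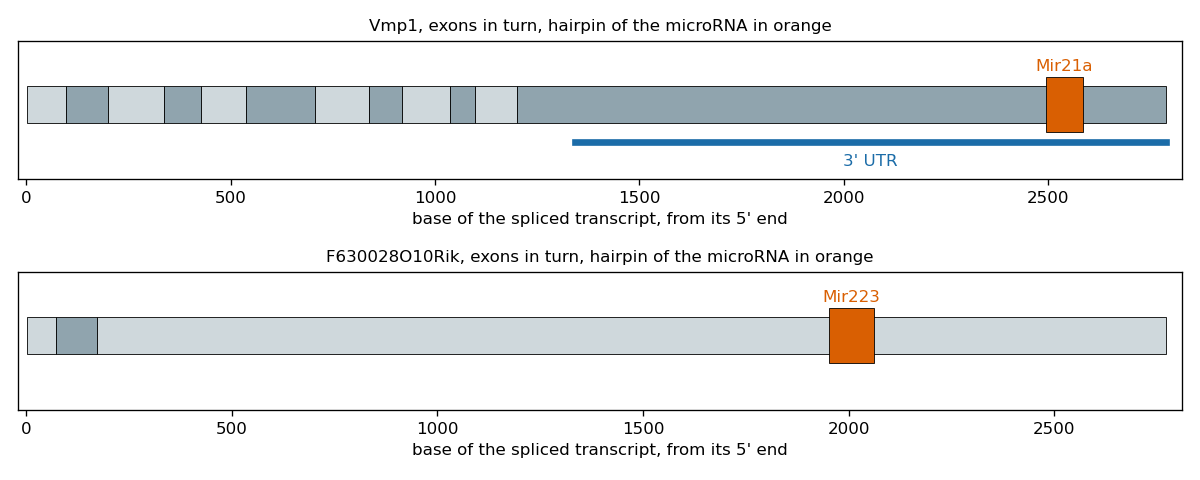
Spliced annotated transcript of Vmp1 (top) and F630028O10Rik (bottom), drawn to scale along the x axis in bases from the 5′ end, with exons as boxes in alternating grey, the microRNA hairpin in orange and the annotated 3′ UTR of Vmp1 as a blue line. Mir21a is in exon 12 of 12 and Mir223 in exon 3 of 3, in both cases in the 3′ part of the longest exon.

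The libraries held 84657 to 277682 counted reads, and 4 genes (Tmem38b, Polr2m, Lars2 and Rn18s-rs5) took 89.7% ± 1.85 (SD, n = 6) of them in AG, 76.9% ± 4.60 (n = 6) in MG and 79.7% ± 2.73 (n = 5) in GC. Values below are reads, RPKM (reads scaled to gene length and to mapped reads, as deposited) or TMM-normalized CPM (reads scaled to a common library total after the edgeR factors that set most genes level between libraries). The TMM factors ran from 0.482 in AG replicate 6 to 1.92 in MG replicate 2. GC replicate 4 stood apart from the other ground libraries, with a factor of 0.525 where theirs were 1.32 to 1.74, as did MG replicate 6 with 0.577 where the other MG libraries had 1.16 to 1.92. The difference of each member from GC is therefore also given without GC replicate 4.

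The entry of Vmp1 held many reads and that of F630028O10Rik few. Vmp1 had 4809 reads over the 17 libraries, the rank 18 of all genes, which was 0.175% of all counts and 1.04% of the counts outside the 4 dominant genes. F630028O10Rik had 172 reads and rank 198. Both were counted in 17 of 17 libraries. Per length, the mean RPKM was 18.9 for Vmp1 and 0.798 for F630028O10Rik, and within a library the RPKM of Vmp1 was 7.39 to 81.9 times that of F630028O10Rik (median 26.7).

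The microRNA genes themselves were listed without signal. Mir21a and Mir223 were listed at 0, in reads and in RPKM, in 17 of 17 libraries. At the depth of these libraries a single read would have been 1.11 to 6.81 RPKM for Mir21a and 0.928 to 5.70 RPKM for Mir223. The entry of a microRNA inside another gene was almost never filled, so a 0 there is no measure of the microRNA. Of 776 microRNA genes placed inside a gene of the same strand that has a row of its own, 3 (0.387%) had an RPKM above 0 in any library, whereas 65 of 393 (16.5%) did where no such gene was around them. The 3 were Mirlet7a-1, Mir99b and Mir206. Of the 128 microRNA genes within an exon of a gene with at least 1 counted read, as Mir21a and Mir223 are, 0 were above 0. Here and below, an exon of any annotated transcript of the gene counted.

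The microRNA genes with the highest mean RPKM (Mir6236, Mir143, Mir122, Mir451a and Mir30a, 369 to 12174 RPKM) had no gene with a row around them. The table gives 1 number per gene and no position within the gene, so how many of the reads of Vmp1 or F630028O10Rik lay on the hairpin was not analysed here. Reads from the host transcript and reads from the microRNA therefore cannot be told apart in these values.

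**Figure D2:**
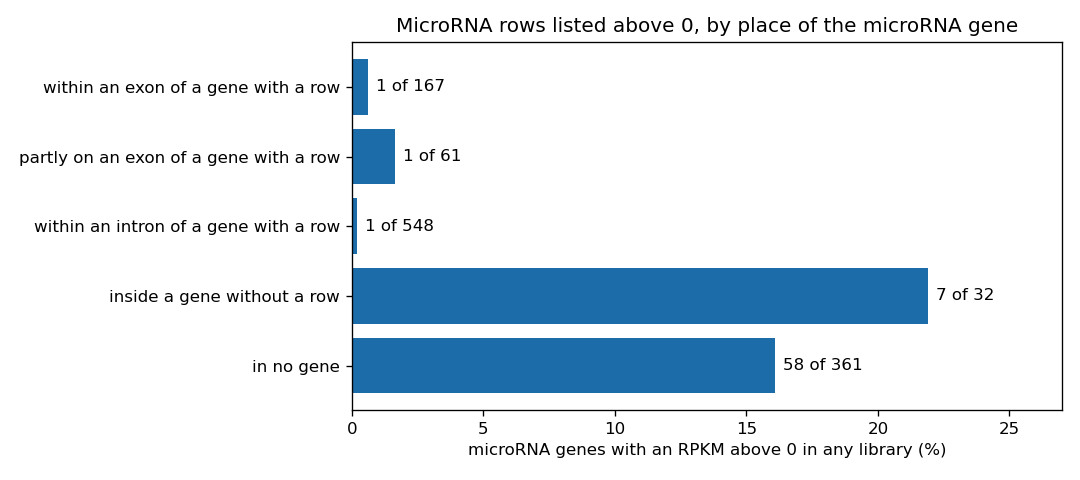
Share of microRNA genes with an RPKM above 0 in any of the 17 libraries (x axis, %), by where the microRNA gene lies on the annotation (y axis), with counts beside the bars. The share is 0.599% (1 of 167) within an exon of a gene with a row, the class of Mir21a and Mir223, and 16.1% (58 of 361) in no gene.

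Vmp1 reads covered a wide range in AG and a narrow one on the ground. The AG replicates 1 to 6 held 670, 647, 1058, 259, 90 and 79 reads, the MG replicates 290, 219, 333, 165, 264 and 130, and the GC replicates 61, 186, 96, 165 and 97. In TMM-normalized CPM the lowest, median and highest values were 1031, 2643 and 6105 in AG, 1043, 1211 and 2531 in MG, and 405, 596 and 1655 in GC. The 3 AG mice with the highest levels (replicates 1, 2 and 3) lay above every MG and GC mouse, while AG replicates 5 and 6 lay within the range of GC.

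On this scale Vmp1 averaged 3281 ± 2198 in the AG mice (SD, n = 6), 1426 ± 572 in the MG mice (n = 6) and 758 ± 514 in the GC mice (n = 5). The ratio to the GC mean was 4.33 for AG and 1.88 for MG. Of the 6 AG libraries 4 lay above the highest GC library, and of the 6 MG libraries 1 did. GC replicate 4 was at 1655, and the other 4 GC libraries (405 to 690) lay below all 12 flight libraries. The fitted log2 difference from GC was 2.12 in AG and 0.92 in MG, and it was 2.63 and 1.42 without GC replicate 4.

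On the RPKM scale Vmp1 was 30.0 ± 23.2 in AG, 16.1 ± 8.94 in MG and 8.90 ± 2.41 in GC. The order of the groups was the one found with TMM, and GC replicate 4 (7.85) was no longer the highest GC library. In each flight group 4 of 6 libraries lay above the highest GC library (12.6) and 1 lay below the lowest (6.31), namely AG replicate 6 at 2.98 and MG replicate 4 at 4.36. These were also the libraries with the most mapped reads in their groups. In plasma, fewer cells that release a transcript and less RNA per cell cannot be told apart, and this holds for every level given here.

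F630028O10Rik was counted in single or double digits. The AG replicates 1 to 6 held 15, 14, 24, 20, 3 and 2 reads, the MG replicates 16, 7, 7, 6, 22 and 15, and the GC replicates 4, 9, 1, 4 and 3. A count of 1 read has an exact Poisson interval (95%) of 0.0253 to 5.57 reads and a count of 24 one of 15.4 to 35.7, which cover counting error only. GC replicate 2 held more reads than AG replicates 5 and 6 and MG replicates 2, 3 and 4, so the counts of GC and flight libraries overlapped.

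In TMM-normalized CPM the lowest, median and highest values of F630028O10Rik were 26.1, 97.2 and 183 in AG, 33.6, 68.1 and 120 in MG, and 6.21, 29.2 and 40.1 in GC. The AG mean was 98.1 ± 61.4 (SD, n = 6), the MG mean 71.5 ± 32.1 (n = 6) and the GC mean 24.3 ± 14.3 (n = 5), which is 4.04 times the GC mean in AG and 2.95 times in MG. In each flight group 5 of 6 libraries lay above the highest GC library. The exceptions were AG replicate 6 and MG replicate 2. MG replicate 6 had the highest MG value on this scale (120), and at 67.2 in CPM of the total count it was not the highest. The fitted log2 difference from GC was 2.05 in AG and 1.57 in MG, and it was 2.25 and 1.76 without GC replicate 4.

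In RPKM the F630028O10Rik means were 0.992 ± 0.626 in AG, 0.927 ± 0.498 in MG and 0.412 ± 0.306 in GC. On this scale 4 of 6 AG libraries and 3 of 6 MG libraries lay above the highest GC library (0.761). AG replicates 5 and 6 and MG replicate 4, low for Vmp1 in RPKM, were also the lowest for F630028O10Rik in their groups.

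**Figure D3:**
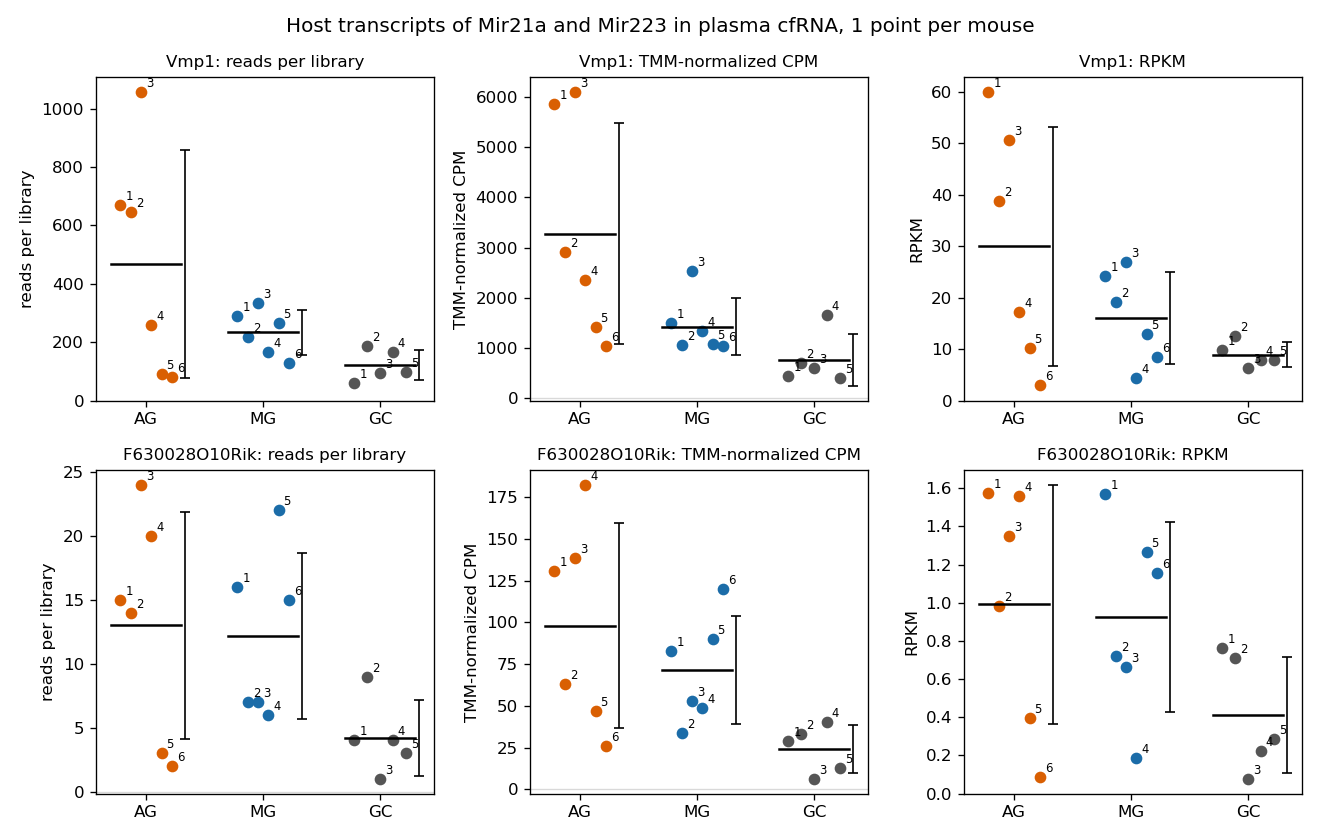
Vmp1 (top row) and F630028O10Rik (bottom row) in each library as reads, TMM-normalized CPM and RPKM (y axes, linear), by group on the x axis, with 1 point per mouse labelled by replicate number, a line at the group mean and a bar of ± 1 SD beside it. The Vmp1 means fall from AG (3281 TMM-normalized CPM) to MG (1426) to GC (758), with AG replicates 5 and 6 far below AG replicates 1 and 3, and F630028O10Rik is low in GC (mean 24.3).

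The comparison of MG with AG, which asks what gravity changes within the flight, was not used to pick the genes, although its libraries were. Vmp1 had a log2 fold change of -1.20 (SE 0.47) in MG, and the difference did not pass the adjusted threshold (edgeR quasi-likelihood test, unadjusted p = 0.0165, Benjamini-Hochberg adjusted p = 0.244 over 272 genes). F630028O10Rik had a log2 fold change of -0.48 (SE 0.48, adjusted p = 0.752 in the same test). Without MG replicate 6 the log2 fold changes were -1.13 and -0.68. The share of all tested genes called at an adjusted p under 0.05 in this comparison was 0%, so the members' 0 calls of 2 are at the background. That test called 36 of the 272 genes at an unadjusted p under 0.05, DESeq2 called 9 and the edgeR exact test 6 after adjustment.

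The study itself called genes whose fold change exceeded 1.5 at p under 0.05 without adjustment, with the test of its own software. Here and below, the study's criterion means these cutoffs put on the edgeR quasi-likelihood test of 272 genes, so the calls are not the study's own. By this criterion Vmp1 counted as lower in MG, as did 8.46% of the tested genes, and F630028O10Rik did not count. The Vmp1 fold change was under 1.5 with no scaling beyond the total count (log2 -0.23) and by limma on log2(RPKM + 1) (-0.55). The groups overlapped for both genes. For Vmp1, 3 of 6 AG libraries lay above the highest MG library and 1 lay below the lowest in TMM-normalized CPM. An exact two-sided permutation test of log2(TMM-normalized CPM + 1) over the 12 flight libraries gave p = 0.0779 for Vmp1 (mean difference -0.98) and p = 0.578 for F630028O10Rik (-0.28). On log2(RPKM + 1) the exact permutation test gave p = 0.450 for Vmp1 (-0.55) and p = 0.933 for F630028O10Rik (-0.021). Against the median of all tested genes, which was 0.17 in this comparison, Vmp1 was lower by 1.37 and F630028O10Rik by 0.65 on the log2 scale. With no scaling beyond the total count the median of all genes moved to 1.27, Vmp1 had a log2 fold change of -0.23 and F630028O10Rik had a log2 fold change of 0.49, both below that median.

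Markers of cells that plasma RNA can come from were read beside these values. The 11 red cell markers in the table summed to 10078 to 25377 TMM-normalized CPM in AG, 2929 to 19086 in MG and 6239 to 18807 in GC. Of the 8 tested, 5 were lower in MG than in AG by the study's criterion, with a median log2 fold change of -1.29 over the 8, where 8.46% of all tested genes were lower and the median of all was 0.17, and 0 had an adjusted p under 0.05. In AG against GC 8 of the 8 were above 0, with a median of 0.81 (-0.21 over all tested genes), and 2 were higher by the criterion (6.25% of all). Of these Bpgm, the enzyme that makes the hemoglobin ligand of red cells, also passed the adjusted threshold (edgeR adjusted p = 0.0335), a call lost without any one of AG replicates 1, 3 and 4 and GC replicates 1, 2, 3 and 5. It was also lost with no scaling beyond the total count, with genes of at least 5 reads, with the libraries of both groups only, by limma on RPKM and with mapped reads as library size. In MG against GC, where both members had values above 0, 2 of the 8 were above 0, with a median of -0.29 (-0.0034 over all tested genes), and 1 was lower by the criterion (0.735% of all). The 10 platelet markers summed to 281 to 2790 in AG, 1099 to 3210 in MG and 1304 to 3678 in GC. Of the 8 tested platelet markers 1 was above 0 in AG against GC (median -0.43), 2 were in MG against GC (median -0.22) and 6 were in MG against AG (median 0.23), where 1 was higher by the criterion (4.78% of all). The myeloid markers, 19 of which were in the table, overlapped between groups at 117 to 274 in AG, 129 to 373 in MG and 167 to 261 in GC, and Camp, Elane and Cebpe, which mark granulocyte precursors, were at 0 throughout. Lymphocyte markers summed to at most 78.2 in any library, with Cd3e and Cd4 at 0. The 12 liver markers summed to 18.3 to 3328 in AG, 38.4 to 4108 in MG and 87.7 to 191 in GC, with medians of 127, 324 and 100.1. The one tested liver marker, Alb, which encodes serum albumin, had a log2 fold change of 3.43 (SE 1.44, edgeR adjusted p = 0.366) in AG against GC and 4.27 (SE 1.46, adjusted p = 0.604) in MG against GC, and met the criterion in both. The 8 skeletal muscle markers summed to at most 245 in any library. The part of these cell types in the levels of Vmp1 and F630028O10Rik was not tested.

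The entry of Vmp1 held more reads than that of any listed gene of its pathway. Those genes carry no microRNA within an exon, and how many of the Vmp1 reads are mRNA was not tested. The 25 other autophagy genes on a list written for this work had 657 reads together, against 4809 for Vmp1 alone, and Atg5, which takes part in coupling ubiquitin-like proteins to the autophagosome membrane, had 0. Their mean RPKM was at most 0.972, in Bnip3l, a receptor for the removal of mitochondria by autophagy, with a median of 0.0268 over the list, where Vmp1 had 18.9. Becn1, a subunit of the lipid kinase that starts autophagosome formation, had 57 reads and a mean RPKM of 0.125. Tmem41b, which acts with Vmp1 at the endoplasmic reticulum, had 3 reads. No listed gene exceeded Vmp1 in reads or RPKM.

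Of the 25, only Bnip3l was deep enough to be tested. Its log2 difference was 0.0075 (SE 0.467) in AG against GC and -0.50 (SE 0.46) in MG against GC, and in MG against AG it was -0.51 (SE 0.45, edgeR adjusted p = 0.686). The described targets were also rare. The 12 listed mRNAs described as targets of microRNA 21 had 282 reads together and the 8 of microRNA 223 had 106, and none of either list passed the filter, so changes in them were not tested.

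**Figure D4:**
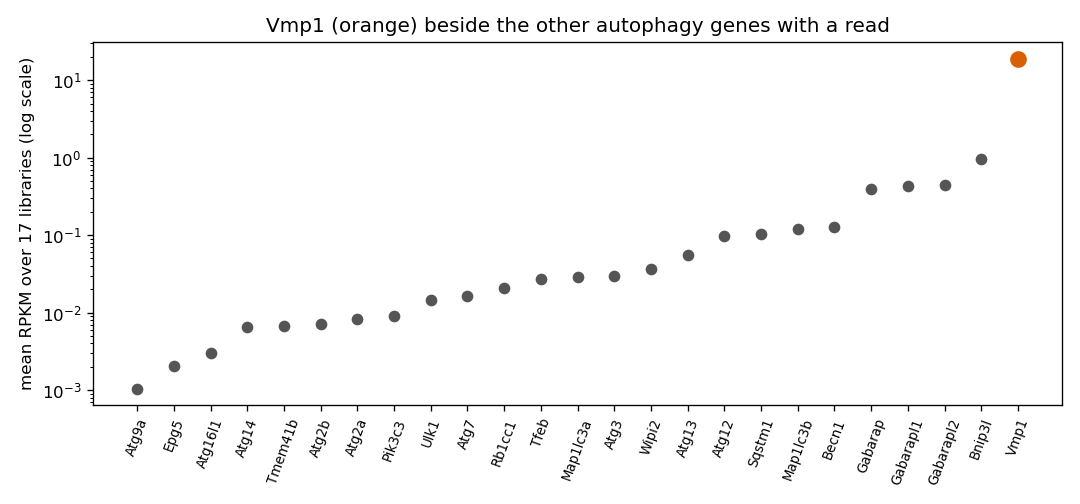
Mean RPKM over the 17 libraries (y axis, log scale) of the autophagy genes with at least 1 read (x axis, grey points) and of Vmp1 (orange). Vmp1 (18.9) lies above Bnip3l (0.972), the highest of the others, and the median of the list is 0.0268.

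Other microRNA host genes were compared to place both genes among their kind. Of 52 listed hosts, 51 were in the table, 8 of these were at 0 in all libraries and 2 passed the filter, Mir17hg (718 reads) and Mcm7 (596 reads). The 13 listed hosts with the microRNA within an exon had 1537 reads and a median of 20, and the other 38 had 523 reads and a median of 5.5. Across the annotation, 13 of 151 genes with a microRNA within an exon passed the filter for testing (8.61%), 1 of 432 with a microRNA only within an intron (0.231%), and 272 of all 49585 genes (0.549%). Vmp1 and F630028O10Rik are among the 13, and 11 remain without them. Both were picked for higher counts in flight, and the filter removed F630028O10Rik in fits of only 2 groups that included GC. The share of 8.61% therefore holds the choice of the members. An exon of any annotated transcript counted, also where the main spliced transcript may lack it. The place on a spliced transcript was looked up only for Vmp1 and F630028O10Rik. Exon length and expression of these classes were not matched.

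The 2 listed hosts that passed the filter also carry microRNAs related to each other. Mir17hg is the noncoding host of the miR-17-92 cluster, and Mcm7, a subunit of the replicative helicase, holds Mir25 and Mir93. Their mature microRNAs pair by seed across the 2 hosts (seed in capitals, RefSeq, GRCm38.p6).
mmu-miR-17-5p in Mir17hg: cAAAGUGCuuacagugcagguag
mmu-miR-93-5p in Mcm7: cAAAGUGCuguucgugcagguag
mmu-miR-92a-3p in Mir17hg: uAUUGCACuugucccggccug
mmu-miR-25-3p in Mcm7: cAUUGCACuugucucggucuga
None of these seeds is a seed of microRNA 21 or 223.

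Over the 17 libraries and 271 other tested genes, the genes whose log2(TMM-normalized CPM + 1) was most correlated with Vmp1 were Trim39 (Pearson r 0.754), F630028O10Rik (0.733), Mcm7 (0.701), Rnf10 (0.662) and Mir17hg (0.660). Those of F630028O10Rik were Vmp1 (0.733), Mcm7 (0.728), Mir17hg (0.630), Trim39 (0.567) and Hist1h3b (0.563), the last of which encodes a replication-dependent histone H3. Trim39 and Rnf10 encode ubiquitin ligases. Of the 271 genes, 12 (4.43%) hold a microRNA within an exon of any annotated transcript. Among the nearest genes of each member it was 3 of 5, namely the other member, Mcm7 and Mir17hg. On log2(RPKM + 1) it was 2 of 5 for Vmp1 (F630028O10Rik, Trim39, Rnf10, Mcm7 and Bpgm) and 3 of 5 for F630028O10Rik (Vmp1, Gm20732, Borcs6, Mcm7 and Rpl21), and Mir17hg was in neither 5. These values are a description, since the points share libraries and scaling and both members were picked for the same direction.

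Within the groups the likeness of both members varied with the scale, and its difference between AG and MG was not tested. On log2(TMM-normalized CPM + 1), among the 6 AG libraries r between Vmp1 and F630028O10Rik was 0.779, and among the 6 MG libraries it was -0.21. On log2(RPKM + 1) it was 0.866 in AG and 0.520 in MG.

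In the fit on TMM-scaled counts the 2 tested hosts lay on the same side of 0 as Vmp1 in each pair of groups, but not on every scale. In TMM-normalized CPM, Mcm7 averaged 464 ± 277 over the AG mice, 147 ± 129 over the MG mice and 110 ± 65.5 over the GC mice, and Mir17hg averaged 467 ± 210, 282 ± 171 and 160 ± 109. In RPKM, Mcm7 was lower in MG (0.993 ± 0.264) than in GC (1.44 ± 1.21), and in CPM of the total count Mir17hg was higher in MG (345 ± 176) than in AG (290.1 ± 112). In AG against GC the edgeR log2 fold change was 2.10 (SE 0.62, adjusted p = 0.102) for Mcm7 and 1.56 (SE 0.50, adjusted p = 0.152) for Mir17hg, and both met the study's criterion as higher in AG, as did 6.25% of all tested genes. In MG against AG it was -1.68 (SE 0.57, adjusted p = 0.169) for Mcm7 and -0.73 (SE 0.45, adjusted p = 0.524) for Mir17hg, and Mcm7 met the criterion. In MG against GC it was 0.42 (SE 0.61) and 0.84 (SE 0.49), with 0 of the 2 called by either rule, where 3.68% of the tested genes met the criterion as higher. Neither Mcm7 nor Mir17hg had an adjusted p under 0.05 in any pair in the edgeR quasi-likelihood test, while in AG against GC DESeq2 called 2 of the 2 and the edgeR exact test 1. The pairs share libraries, so these values are not independent of each other.

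The other genes with a microRNA within an exon lay on both sides of 0. Of the 11 tested genes of that kind other than Vmp1 and F630028O10Rik, 5 had a log2 difference above 0 in AG against GC, with a median of -0.22, and the median of all tested genes was -0.21. By the study's criterion 3 were higher in AG (Mcm7, Mir17hg and Oaz1) and 1 was lower (Tlcd1), where 6.25% of all tested genes were higher and 5.51% lower. In MG against AG 6 of the 11 were above 0, with 1 higher (Tlcd1) and 2 lower (Mcm7 and Oaz1) by the criterion, where 4.78% of all tested genes were higher and 8.46% lower. In MG against GC 8 of the 11 were above 0 and 0 met the criterion in either direction, which 4.41% of all tested genes did (3.68% higher and 0.735% lower). Gm20732, the host of Mir30d, had the most reads of the group (6548), and its log2 fold change in AG against GC was 0.80 (SE 0.41, edgeR adjusted p = 0.422).

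**Figure D5:**
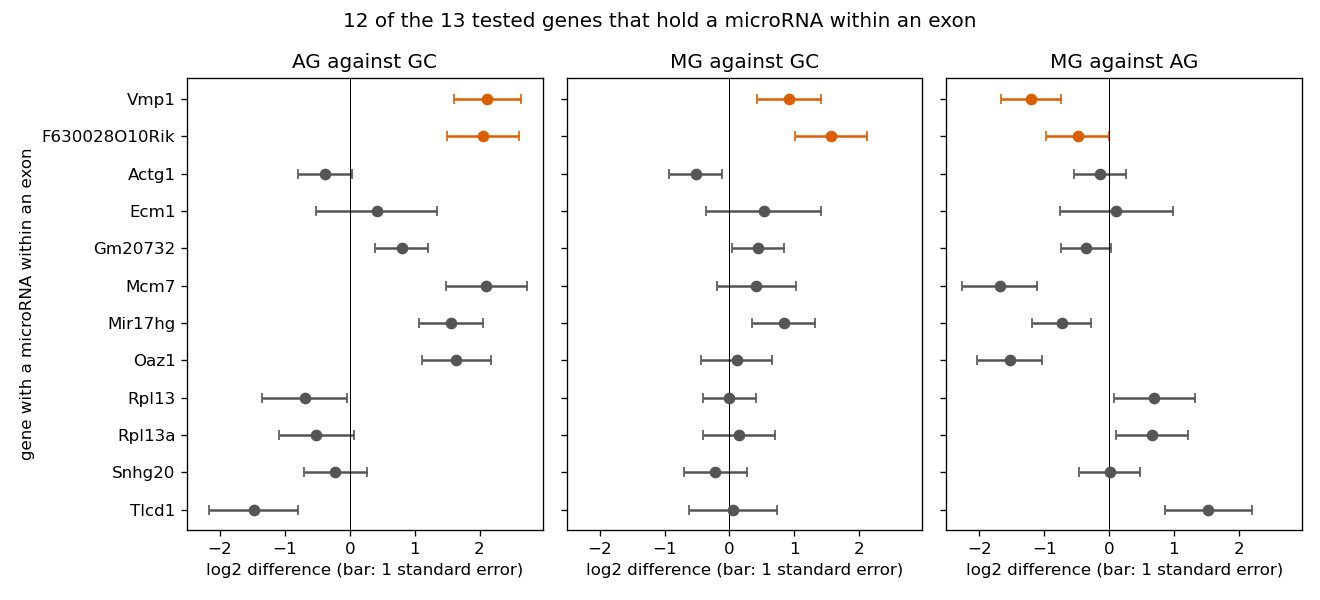
Fitted log2 difference (x axis, point) with ± 1 SE (bar) of 12 of the 13 tested genes that hold a microRNA within an exon (y axis) in AG against GC, MG against GC and MG against AG, with Vmp1 and F630028O10Rik in orange. Both members lie right of 0 against GC, the direction they were picked for, and in MG against AG Vmp1 is at -1.20 and F630028O10Rik at -0.48, while the other hosts shown lie on both sides.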

How the data were processed

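Plasma cfRNA of 17 mice was sequenced from small RNA libraries, a preparation the labels ascribe to RNA degradation. Paired reads of 36 bases were mapped by the authors to mm10 with CLC Genomics Workbench, over 49585 genes. The deposited counts are unnormalized reads per gene, the deposited RPKM is per gene length and mapped reads, and the deposited TPM was not used. Trimming, strand and the treatment of reads with several matches are not given in the sources used here. For 579 genes the RPKM was above 0 although the count was 0, so RPKM is not in every row the count rescaled.

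Groups were taken from the sample labels. Counts were tested in R 4.3.3 with edgeR 4.0.16 (TMM scaling, filterByExpr, quasi-likelihood test, all libraries in one fit, Benjamini-Hochberg adjustment over 272 genes, threshold 0.05). The libraries are from different mice. DESeq2 1.42.0, the edgeR exact test and limma 3.58.1 on log2(RPKM + 1) were alternatives, and exact permutation tests used scipy 1.17.1 in Python 3.11.15. Low-count genes, as most here, are measured with large counting error. Gene and microRNA positions are from GENCODE M21, which holds 47147 of the gene names, and 1169 of 1185 microRNA genes were placed on it. The tests were run on simulated counts, drawn from 1 gene profile for all groups with set changes between MG and AG only. The simulation left out the group differences in the 4 dominant genes, so it cannot check the scaling against them.

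Members and gene lists were chosen with earlier results of these data known. Genes named are the members and their microRNAs, the 5 genes most correlated with each member, every tested gene of the lists of hosts, autophagy genes and targets, and the 5 microRNA genes highest in RPKM. Becn1, Tmem41b, Atg5, Alb, Bpgm, Borcs6, Rpl21, Gm20732, Oaz1, Tlcd1 and the other exon hosts were named after their values were seen, and 1 exon host is counted in the totals but not reported here. The 4 planned tests on Mir21a and Mir223 were not run, because their values were 0 in all libraries.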

Additional observations from a re-analysis of the deposited data

Results flagged for a closer look

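In 48 groups of 5 or 6 libraries, 1 gene and group at a time, a lone library far from the others of its group was looked for with Dixon's test, which chance meets in about 1 in 20 groups, and 12 values met it. All are in TMM-normalized CPM. Vmp1 was 2531 in MG replicate 3, where the other MG libraries were 1043 to 1506, and 1655 in GC replicate 4, where the other GC libraries were 405 to 690. Scaled to the total count alone, GC replicate 4 held 846 CPM of Vmp1, within the 539 to 1060 CPM of the other GC libraries, so its place depends on its TMM factor of 0.525.

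GC replicate 4 was also the high library for Trim39 (311), Hist1h3b (100.3), Rpl13a (251) and Tlcd1 (2237), that is, for 5 of the 12 values with Vmp1. MG replicate 4 was high for Mir17hg (624.8) and Trim39 (763). The remaining values were 274 for Ecm1 in AG replicate 6, 2897 for Tlcd1 in MG replicate 6, 85.3 for Oaz1 in GC replicate 2, and 543 for Snhg20 in GC replicate 5, the only one that was low. No value of F630028O10Rik met the test.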

How the results depend on the processing

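The MG against AG difference of Vmp1 stayed below 0 in all 12 alternatives run (log2 -1.28 to -0.23) and short of an adjusted p of 0.05 in those fitted across genes (adjusted p 0.0983 to 0.684), and the exact permutation tests, which have no adjusted p, gave 0.0779 and 0.450 and without each library (-1.44 to -0.94, adjusted p 0.149 to 0.459). That of F630028O10Rik turned to 0.49 with no scaling beyond the total count, where the median of all genes rose to 1.27, and lay between -0.68 and -0.23 without each library. The RPKM means of F630028O10Rik were below 1, where the 1 added before the logarithm shrinks differences. Its ratio of RPKM means to GC was 2.41 in AG and 2.25 in MG. The described log2 differences from GC fell on log2(RPKM + 1) to 1.16 in AG and 0.61 in MG for Vmp1, and to 0.45 in AG and 0.43 in MG for F630028O10Rik. With no scaling beyond the total count those in AG were 1.49 for Vmp1 and 1.15 for F630028O10Rik, where the median of all genes was -1.14, and F630028O10Rik was at 1.32 with mapped reads as library size. Without each library they were 1.85 to 2.63 (AG) and 0.79 to 1.42 (MG) for Vmp1, and 1.80 to 2.25 and 1.33 to 1.76 for F630028O10Rik.

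The number of genes called moved more. In MG against AG it was 0, and 58 with no scaling, 6 with genes of at least 5 reads, 6 by the exact test, 1 with the libraries of both groups only, 9 by DESeq2, 36 by the study's criterion, and 0 to 10 without each library (10 without MG replicate 4, 5 without AG replicate 2, 3 without MG replicate 3). In AG against GC it was 4, and 9, 0, 7, 1, 8 and 32 in the same order, 0 by limma on RPKM, 0 with mapped reads as library size, a setting chosen after seeing the data, and 0 to 6 without each library (0 without GC replicate 2, 3 or 5, 1 without GC replicate 1, 2 without AG replicate 1 or 3). In MG against GC it was 0, and 10 with genes of at least 5 reads, 12 by the criterion and 0 to 1 without each library (1 without GC replicate 4). Of the other listed hosts 0 were called, but in MG against AG 1 by the criterion and 0 to 1 without each library (1 without MG replicate 4), and in AG against GC 1 by the exact test, 2 by DESeq2, 2 by the criterion and 0 to 1 without each library (1 without AG replicate 6 or GC replicate 4). The causes were not tested.

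The libraries were not treated as paired by replicate number, and whether same-numbered libraries shared their handling was not tested. The deviations of same-numbered libraries correlated at -0.472 to 0.593, over 0.1 in 7 of 16 pairs, and 5 of 17 libraries correlated best with their own number. Those of replicate 1 were at 0.464 (AG with MG), 0.484 (AG with GC) and 0.593 (MG with GC). With the replicate block the genes called were 3 in MG against AG, 1 listed host was called in AG against GC, and Vmp1 was at -1.04 in MG against AG. In fits of only 2 groups that included GC, F630028O10Rik was removed by the filter and has no value. Tests of Mir21a and Mir223 and of their relation to the host genes were not run, as all values were 0. Low depth limits F630028O10Rik, and no gene of the target lists passed the filter used.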
